A study of Homo sapiens and Mus musculus with 20 samples.

Results

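The comparison described here is sodium butyrate (NaBu) against no treatment in CT26, an established mouse colon carcinoma line that was derived from a chemically induced tumor of a BALB/c mouse. It comprises 8 of the 20 ATAC-seq libraries of the series, chosen by their labelled cell line and treatment, with 4 libraries from cells given 1 mM NaBu for 12 to 16 h and 4 from untreated cells. No transgene or deletion is named for either group, both groups are the same line, and 50000 viable cells entered each reaction. The labels carry 2 dates, so that replicates 1 and 2 of both groups have the earlier date and replicates 3 and 4 the later one. No source used here says whether libraries of a group came from separate cultures, so p-values measure the spread between these libraries, which may be technical. Tissue markers were not examined, because a mouse gene annotation was not used here, and regions are therefore identified by their position.

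Butyrate is a short-chain fatty acid that gut bacteria release from dietary fiber and that colon cells burn as fuel. It inhibits class I histone deacetylases, and through butyryl-CoA it also supplies the butyryl groups found on histone lysines. ATAC-seq reads out open chromatin, since the Tn5 transposase inserts sequencing adapters where nucleosomes leave DNA exposed, and a peak marks a stretch where insertions exceed the local background. The question put to the CT26 libraries was how 1 mM butyrate shifts accessibility in mouse colorectal cells.

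Each library has its own list of peaks, and overlapping intervals of the 8 lists were joined into 243267 regions in mm10 coordinates. Tests were run on the 139886 regions listed by 2 or more of the libraries, and the 55430 listed by all 8 are called shared regions. Both of the following readouts were compared. The rank readout is the percentile rank of a region among all regions of its library by −log10 p, with 0 for a region the library does not list and listed regions starting at a percentile of 48.1 to 64.8 depending on the library. The pileup readout, for shared regions, is the summit pileup, the number of tags overlapping the summit, expressed as a multiple of the library's own background.

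Depth was visible only as background pileup, which ran from 1.61 to 2.43 tags in the untreated and from 1.29 to 2.75 tags in the treated libraries. Treated replicate 1 stood apart in 2 ways. Its list stopped at 300000 numbered peaks and a −log10 p of 4.50, whereas the other 7 lists reached 2.00, and its median peak was 394 bp wide against 206 to 243 bp in the other 7 libraries. NaBu-treated libraries averaged 49.3 ± 4.09 Mb of covered sequence (SD, n = 4) and untreated libraries 44.4 ± 2.82 Mb (n = 4), a difference that the exact permutation test did not separate (two-sided exact p = 0.0857, 70 arrangements). Peaks wider than 1 kb made up 5.14 ± 2.38% of the intervals in treated (SD, n = 4) and 8.72 ± 1.84% in untreated libraries (n = 4; exact permutation p = 0.0857). When all lists were held to the −log10 p limit of treated replicate 1, this difference became −6.05 percentage points and passed (exact permutation p = 0.0286, the smallest that 4 against 4 allows).

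Treatment and date both ordered the libraries. The first principal component of the percentile ranks held 33.1% of the variance and placed the 4 treated libraries on one side and the 4 untreated libraries on the other, and the second held 20.5% and parted the dates. Peak lists of the same group and date shared the most sequence, with a mean Jaccard index (shared over total covered bases) of 0.664 (range 0.640 to 0.712, 4 pairs). Lists of one group from different dates reached 0.603 (0.569 to 0.657, 8 pairs), and a treated and an untreated list of one date 0.547 (0.519 to 0.561, 8 pairs). A change of treatment thus lowered the shared sequence more than a change of date did, and the ranges of these last 2 classes did not overlap.

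**Figure D1:**
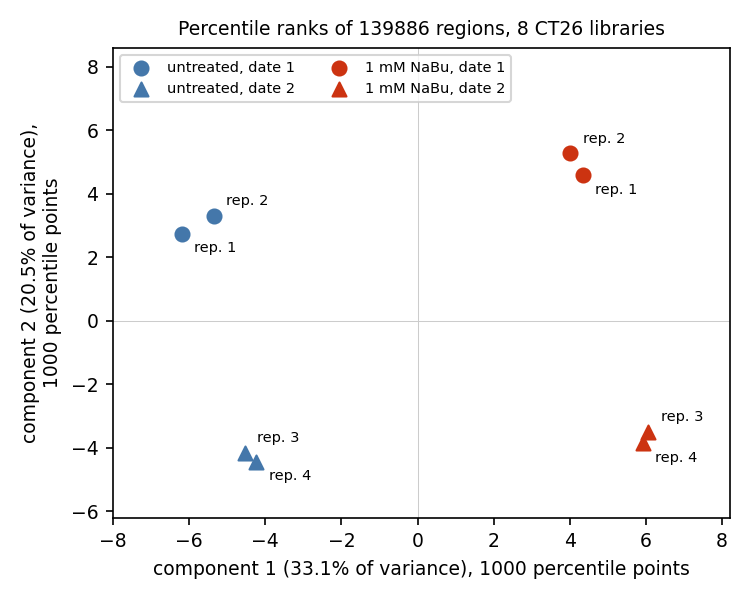
Principal components of the percentile ranks of the tested regions, in units of 1000 percentile points, with 1 point a library, red for 1 mM NaBu, blue for untreated, circles for the earlier date (date 1) and triangles for the later date (date 2). Component 1 (33.1% of variance) separates the treatments and component 2 (20.5%) the dates.

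Accessibility changed in both directions after NaBu, with more regions higher than lower. By percentile rank, 11222 regions rose and 8358 fell (limma with date as a block, Benjamini-Hochberg adjusted p below 0.05), which is 8.02% and 5.97% of the regions tested, or 14.0% together. The median change over all tested regions was 1.25 percentile points, and 45240 regions had an unadjusted p below 0.05. The regions that rose and those that fell differed in how often all 8 libraries listed them. Of the regions that rose, 3934 had a peak in the 4 treated libraries alone and 49.9% had one in all 8 libraries, with a median rise of 42.0 points. Of those that fell, 71.8% were shared regions and the median change was −8.61 points. An unlisted region counts as 0, so these 2 medians depend on how many of the called regions lacked a peak. Within shared regions alone, the median rank change was 4.80 points for the rises and −5.81 points for the falls. Regions that fell were also wider, at a median of 828 bp against 625 bp for those that rose and 388 bp for those not called. Of the regions not called, 36.4% were listed by all 8 libraries, and the part of such listing in these widths was not tested. By the pileup readout, shared regions that fell had a median width of 1152 bp, those that rose 746 bp and those not called 837 bp. Treated and untreated ranks did not overlap in 9835 of the regions that rose and 7444 of those that fell, and in 18.5% of all tested regions.

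The split between higher and lower depends on how deep the lists go. Among the 50000 strongest intervals of each list, 9181 regions rose and 9345 fell, so rises no longer outnumbered falls there. With a −log10 q of at least 2 the counts were 13506 and 9195, and with the limit of treated replicate 1 applied to all lists 13265 and 9399.

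The clearest cases were regions listed in all libraries of one group and in none of the other. There were 3934 gained and 1320 lost regions of this kind. A region without a peak has no value in the lists, so its signal in the group that lacks it is unknown and only the call changed. All of them are among the regions called by rank, which follows from the value of 0 given to unlisted regions, so no p is given for them. In the top 50000 intervals of each list, gains did not outnumber losses, with 1380 gained and 1429 lost. Gained regions were modest, with a median percentile of 69.1 in the treated libraries, and 770 of them (19.6%) averaged above 75. Lost regions had higher percentiles, at a median of 75.4 in the untreated libraries, and 688 (52.1%) averaged above 75. These percentiles do not start from the same floor. Listed regions began at 54.0 to 64.8 in the untreated and at 48.1 to 56.4 in the treated libraries. How much of the difference between gained and lost regions this floor makes was not tested.

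Gained and lost regions also lay in different surroundings. Lost regions were found beside chromatin that stayed open, at a median of 457.5 bp from the nearest shared region, and 62.4% lay within 1 kb of one. Gained regions lay at a median of 4836.5 bp from a shared region, and 13.7% lay within 1 kb. Over all regions listed in 2 to 7 libraries the median was 6533 bp and the share within 1 kb 19.2%, so gained regions were fewer within 1 kb but nearer by the median. The contrast between lost and gained regions kept its direction with stricter peak limits and with 200 bp windows around summits, where 35.1% to 74.2% of the lost and 7.10% to 18.6% of the gained regions lay within 1 kb. The local background that the peak caller set against these peaks differed as well. It was 3.96 times the genome background in lost regions (median over the untreated libraries) and 1.15 times in gained regions (treated libraries), against 1.66 and 1.898 times in shared regions of untreated and treated libraries. A peak beside a strong neighbor is measured against a higher local background, and the part of that background in the lost calls was not tested.

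**Figure D2:**
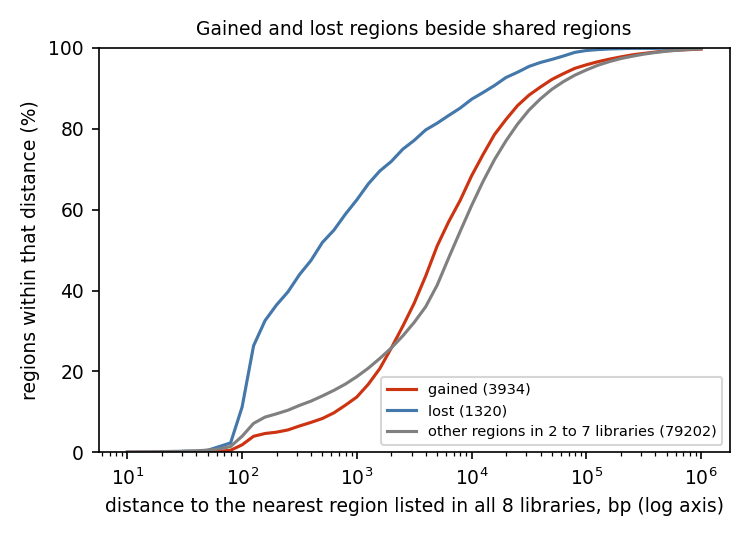
Share of regions (%) that lie within a given distance of the nearest region listed in all 8 libraries (bp, log axis), for gained regions (red), lost regions (blue) and the other regions listed in 2 to 7 libraries (grey). At 1 kb the curve of lost regions has reached 62.4% and that of gained regions 13.7%.

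The largest gains by rank were peaks that went from no call in any untreated library to percentiles of 89.4 or more in the treated libraries for the 3 regions described next. At chr13:58536544-58537060 the percentile was 94.5, 94.6, 93.4 and 91.5 in treated replicates 1 to 4 and 0 in the 4 untreated libraries, a change of 93.51 points. At chr18:36399615-36400252 it was 93.3, 91.5, 94.1 and 95.2 in the treated libraries. At chr10:80028250-80028655 the treated libraries had 89.4, 92.5, 93.5 and 93.5. The 4 treated libraries lie close together at these 3 regions, and none of the untreated libraries lists them. Fold enrichment over local background was 8.001, 7.501, 8.18 and 6.80 at the chromosome 13 region and 8.71, 7.02, 9.77 and 11.05 at the chromosome 18 region.

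The other 9 of the 12 largest gains (at most 2 per chromosome) changed by 88.70 to 90.56 points. They were chr6:29428251-29428819, chr3:54809022-54809517, chr11:95108753-95109488, chr2:68935662-68936505, chr2:112245403-112246058, chr11:32601672-32602237, chr7:44348721-44349423, chr13:55604518-55605185 and chr1:184475992-184476726. Fold enrichment was highest on chromosome 2, where chr2:68935662-68936505 had 19.4, 13.5, 15.0 and 10.5 in treated replicates 1 to 4, and chr2:112245403-112246058 had 11.5, 8.29, 20.4 and 17.5. The second of these was stronger in the libraries of the later date, with percentiles of 94.5 and 93.5 against 85.8 and 84.6 at the earlier date, and was still unlisted in untreated cells of both dates. Among the 12 gains, 3 lay within 1 kb of a shared region.

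The largest losses had the opposite layout, and 10 of the 12 lay within 1 kb of a shared region. At chr5:142961490-142962552 the untreated percentiles were 94.9, 92.8, 91.4 and 90.8 and the treated ones 0, a change of −92.46 points. The region lies 428 bp from a shared one and is 1063 bp wide. At chr10:128565276-128565619, 108 bp from a shared region, the untreated libraries had 91.2, 92.4, 91.0 and 90.8. At chr15:103365518-103365662, a stretch of 145 bp, they had 91.8, 90.9, 91.0 and 91.6. These untreated values vary little, and their fold enrichments were small for such ranks, at 4.80, 3.98, 4.16 and 3.97 on chromosome 5 and 4.74, 4.53, 5.08 and 5.36 on chromosome 15.

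The remaining 9 losses ran from −90.65 to −88.33 points. They were chr11:58979410-58980160, chr12:111575133-111575511, chr2:34869543-34870129, chr15:80799112-80799538, chr17:45736506-45737043, chr10:79989923-79990203, chr9:96118091-96118596, chr11:55468024-55468343 and chr2:35273448-35274123. Fold enrichment over the 12 lost regions ranged from 2.94 to 10.1, and over the 12 gained ones from 3.94 to 20.4.

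Shared regions, where both groups have a measured pileup, gave a finer view. NaBu raised the summit pileup in 16889 of the 55430 shared regions and lowered it in 9791 (limma on log2 pileup over background, date as a block, adjusted p below 0.05), which is 30.5% and 17.7% of those tested and 48.1% in all. The median change was 0.14 on the log2 scale. When each library was scaled by its own median pileup instead of its background, the median became −0.10 and the counts turned to 11122 higher and 16750 lower, so which direction was more frequent depends on the scaling. Called under both scalings were 11122 rises and 9791 falls, which are all the rises of the median scaling and all the falls over background. Rises of at least 2-fold numbered 5869 and falls of at least 2-fold 1835 over background, and 2852 and 3788 with the median scaling. Changes of at least 4-fold were found in 238 regions upward and 56 downward over background, and in 102 and 158 with the median scaling.

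The direction of change followed the level of accessibility. Shared regions were ordered by their mean pileup over the 8 libraries and cut into 10 deciles of 5543. In the lowest decile, at 3.83 to 7.82 times background, 35.1% of regions rose and 2.96% fell. The share that rose was greatest in the third decile, at 46.1%, and dropped to 4.83% in the highest decile, where pileups ran from 96.96 to 642 times background. The share that fell climbed from 2.96% to 36.8% in the ninth decile and 34.4% in the highest. The median change moved with it, from 0.54 in the second decile to −0.20 in the ninth on the log2 scale. Rises thus outnumbered falls in the less open shared regions, and falls outnumbered rises in the most open ones. A shared region needs a peak in all 8 lists, and treated replicate 1 listed none below a −log10 p of 4.50. A weak region that fell below that limit in treated replicate 1 is therefore not counted here. How much of the ordering this selection makes was not tested.

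In either date the median change was higher in the lowest decile than in the highest. Each scaling divides a library by a constant. Switching the scaling therefore shifts the log2 change of every region equally and could not test the ordering. Only the shares called could move. Scaled by the median, 20.1% of the lowest decile rose and 7.41% fell, whereas 0.740% of the highest decile rose and 55.2% fell. At the earlier date the median log2 change was 0.52 in the lowest and −0.24 in the highest decile, and at the later date 0.32 and −0.07. The deepest median of the later date was −0.22, in the ninth decile, so the ordering did not run through to the highest decile there. Treated replicate 1, the library with the shortened list, was then left out. The lowest decile had 22.6% higher and 4.54% lower, and the highest 3.06% and 29.1%. These shares cover the 33324 shared regions whose coordinates stayed the same, in the deciles set with all 8 libraries. Treated replicate 1 lists each of them, so leaving it out could not test the limit of its list.

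**Figure D3:**
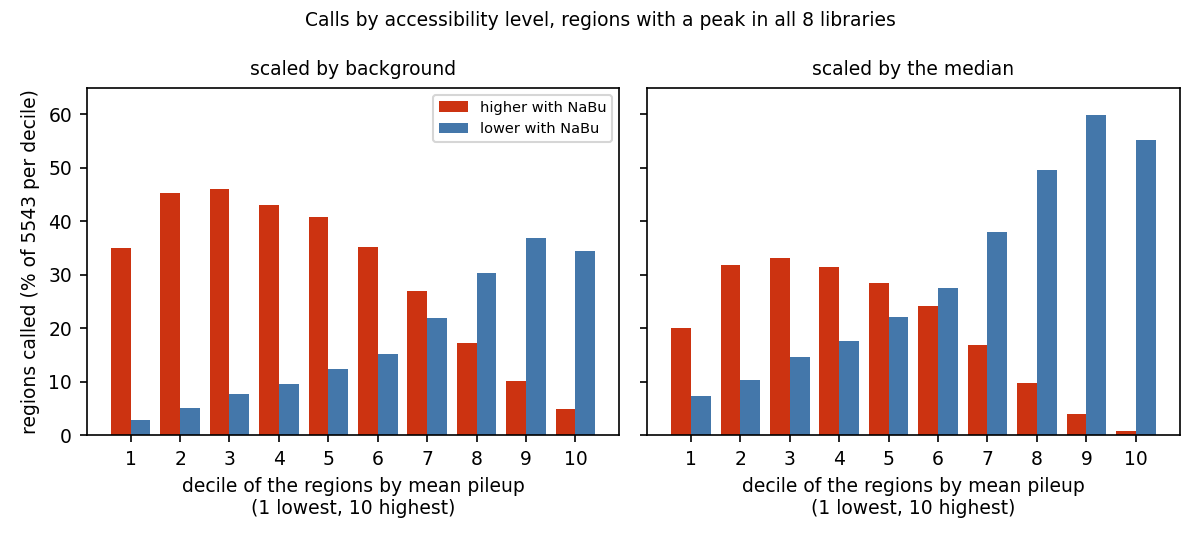
Share of shared regions called higher (red) or lower (blue) with NaBu, as % of the 5543 regions in each decile by mean summit pileup, with each library scaled by its background (left) or by its median pileup (right). Rises fall off toward the highest decile, from 35.1% to 4.83% over background, and falls increase, from 2.96% to 34.4%.

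Peak width moved with peak height in the called regions. In the 16889 regions whose pileup rose, the median peak width was 563.5 ± 49.4 bp in treated (SD, n = 4) and 375 ± 27.1 bp in untreated libraries (n = 4), and the mean number of summits was 3.29 ± 0.271 and 2.59 ± 0.169. In the 9791 regions whose pileup fell, widths were 805 ± 47.3 bp and 992 ± 42.1 bp (SD, n = 4 and 4), and summits 4.40 ± 0.261 and 5.52 ± 0.142. Ranges of treated and untreated libraries did not overlap in any of these 4 measures. Width and height come from the same tags, so these values describe the called regions and were not tested. Where no change was called, widths were 604 ± 55.6 bp and 602 ± 43.9 bp, and summits 3.50 ± 0.241 and 3.80 ± 0.191 (SD, n = 4 treated and 4 untreated).

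The strongest summit often kept its place. Within shared regions, the strongest summits of a treated and an untreated library of one date lay within 50 bp of each other in 69.7% of regions (mean of 8 pairs, range 64.9% to 72.7%). Libraries of the same group and date reached 74.4% (4 pairs, 69.1% to 78.7%), and those of one group from different dates 67.8% (8 pairs, 65.5% to 71.1%). The range between treatments overlapped both of the others. In the regions whose pileup fell, treated and untreated libraries of one date reached 65.1% to 70.5%. Libraries of the same group and date had 73.6% to 82.7% there, with no overlap. Those of one group from different dates had 61.6% to 76.7%, which the range between treatments did overlap.

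The largest pileup rise was at chr5:117125608-117126352. Summit pileup was 4.40, 5.59, 4.94 and 4.40 times background in untreated replicates 1 to 4 and 46.8, 42.5, 133 and 109 times in treated replicates 1 to 4, a log2 change of 3.93 ± 0.26 (SE, adjusted p = 7.16e-08, limma). The treated libraries of the later date are above those of the earlier date, and both dates are far above their untreated libraries. At chr5:111757360-111758355, on the same chromosome, untreated values were 3.30, 6.21, 7.41 and 11.4 and treated values 62.5, 45.6, 197 and 166 (log2 change 3.93 ± 0.23, adjusted p = 3.37e-08, limma). These 2 regions rose 15.2-fold each.

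Other rises were steadier across dates. At chr15:74186540-74188225 pileup was 6.60, 6.21, 5.35 and 3.96 times background in untreated and 69.4, 71.9, 49.1 and 47.5 in treated libraries (log2 change 3.43 ± 0.18, adjusted p = 8.22e-09, limma). At chr2:35691287-35691987 it was 6.05, 6.21, 6.58 and 6.60 untreated and 68.3, 65.7, 62.9 and 54.8 treated (3.30 ± 0.17, adjusted p = 8.16e-09, limma). The 4 untreated values of this region are nearly level, and the treated ones stand 9.87-fold above them. chr2:34904635-34905564 started from a higher base, at 12.1, 13.0, 8.23 and 12.3 untreated, and reached 125, 114, 152 and 136 with NaBu. The remaining 3 of the 8 largest rises were chr10:121454843-121455763, chr19:53740500-53741500 and chr11:79087559-79088244, with log2 changes of 3.30, 3.22 and 3.03.

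The largest pileup falls were at strong and wide peaks. Shared regions have a peak in all 8 libraries, so a large fall can be measured only where the untreated pileup was high. At chr6:72898745-72900766, a region of 2022 bp, untreated libraries had 86.4, 70.8, 140 and 134 times background and treated libraries 13.8, 13.9, 18.7 and 13.2 (log2 change −2.81 ± 0.17, adjusted p = 3.68e-08, limma). At chr7:18957339-18958770 the values were 151, 126, 105 and 133 untreated and 18.2, 15.5, 22.9 and 25.5 treated (−2.67 ± 0.17, adjusted p = 4.65e-08, limma). At chr4:63558082-63559137 they were 80.9, 78.9, 89.3 and 89.3 untreated and 10.9, 8.51, 23.3 and 15.7 treated (−2.64 ± 0.19, adjusted p = 1.48e-07, limma). Treated and untreated values do not overlap at any of these 3 regions, and a peak was still called in each treated library.

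The other 5 falls were chr10:127380008-127381520, chr9:121297070-121299043, chr5:110879241-110880712, chr8:25200950-25202231 and chr5:44225934-44227701, with log2 changes of −2.59 to −2.44. In 7 of the 8 falls the loss was deeper at the earlier date, and in 6 of the 8 the date difference itself passed the test (limma interaction, adjusted p below 0.05). The clearest was chr8:25200950-25202231, where untreated values were 69.9, 55.3, 66.7 and 73.9 and treated values 5.45 and 6.19 at the earlier date but 30.8 and 20.1 at the later date (interaction adjusted p = 3.83e-06, limma). Among the 8 rises, 1 passed that test. Scaled by the median pileup, the 8 rises ranged from 2.79 to 3.69 and the 8 falls from −3.05 to −2.68 on the log2 scale.

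**Figure D4:**
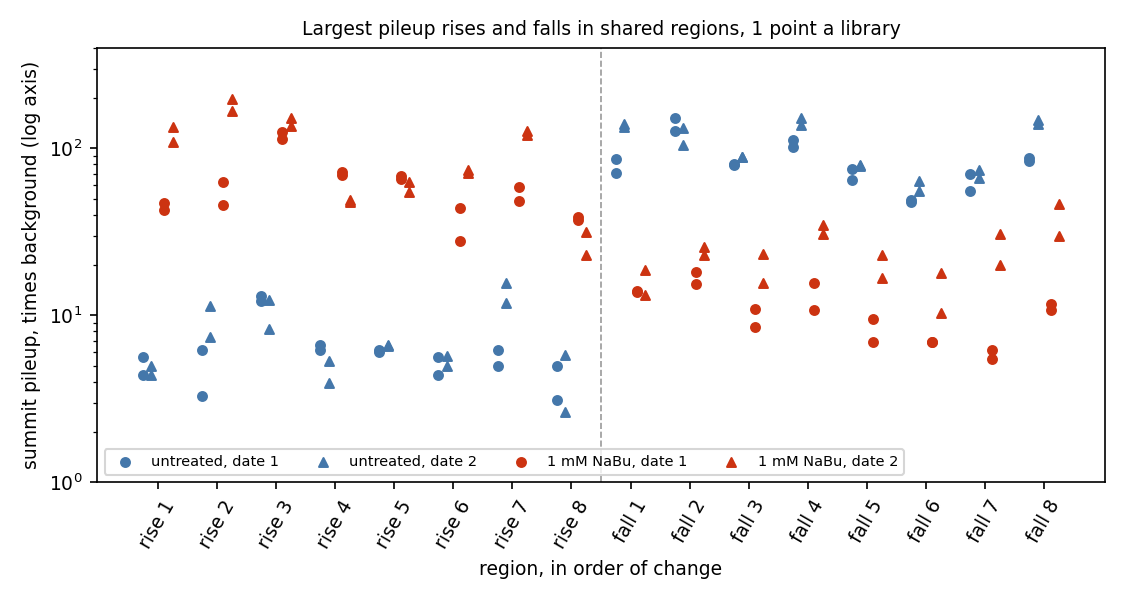
Summit pileup as a multiple of background (log axis) in the 8 shared regions with the largest rise and the 8 with the largest fall, 1 point a library, red for NaBu, blue for untreated, circles for the earlier date (date 1) and triangles for the later date (date 2). In each region the 4 treated libraries lie on one side of the 4 untreated libraries, and in 7 of the 8 falls the treated libraries of the earlier date changed more.

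Some of these regions are near neighbors with opposite directions. The lost region chr2:34869543-34870129 lies 34.5 kb from the rise at chr2:34904635-34905564, and farther along the same chromosome the loss at chr2:35273448-35274123 is followed after 417 kb by the rise at chr2:35691287-35691987. On chromosome 10 the loss at chr10:79989923-79990203 lies 38.0 kb from the gain at chr10:80028250-80028655. Opposite directions were not the more frequent case over all called regions. Of the regions that fell, 28.0% had another that fell within 10 kb and 24.6% one that rose, and of those that rose, 24.2% had another that rose and 17.8% one that fell. Of the regions not called, 19.9% had one that rose and 16.1% one that fell within 10 kb.

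The effect of NaBu differed between the dates at many regions. By rank, 21150 regions (15.1% of those tested) had a treatment effect that depended on the date (limma interaction, adjusted p below 0.05), 10270 of them with the larger value at the later date and 10880 at the earlier one. In 73.5% of them the sign was opposite in the 2 dates. Of the 19580 regions called for the treatment, 1349 (6.89%) had an interaction, and a call over both dates leaves little room for opposite signs. Within single dates, 23157 regions were called at the earlier and 26054 at the later date, and 9870 in both, which is 42.6% and 37.9% of these lists. Without treated replicate 3 the interaction counts were 3772 and 12693, and without treated replicate 4 they were 3709 and 12240, so the count in the first direction moved by more than 1.5 times with either library.

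Examples by rank were all peaks listed in one group at one date and in the other group at the other date. At chr9:70533328-70533656 percentiles were 86.1 and 87.3 in untreated replicates 3 and 4 and 82.4 and 80.9 in treated replicates 1 and 2, and 0 in the other 4 libraries (later minus earlier effect −168 points). At chr8:84629476-84629822 the pattern was the reverse, with 72.9 and 78.7 in untreated replicates 1 and 2, 76.8 and 67.3 in treated replicates 3 and 4 and 0 elsewhere (148 points). The other regions with the largest interactions were chr6:86527500-86527604, chr3:126827323-126827450 and chrX:106149475-106150101 on the side of the first, and chr7:16183635-16183987, chr19:3729002-3729254 and chr7:99537519-99537679 on the side of the second.

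Pileups over background in shared regions gave more one-sided counts for the dates. There the interaction passed in 8819 regions (15.9%), 6785 with the larger value at the earlier date and 2034 at the later one. The date fit was not run with the median scaling. A scaling difference between the dates would move every region the same way, so the balance of these 2 counts may depend on the scaling. The median log2 change was 0.26 at the earlier and 0.05 at the later date. Tested within each date, 27151 regions were called at the earlier and 24566 at the later date, and 15179 were called in both, which is 55.9% and 61.8% of these lists. Of those 15179, 941 had opposite signs. At chr13:119428230-119429939, a region chosen after its values were seen, untreated libraries had 72.1, 63.98, 79.4 and 82.7 times background, and treated libraries fell to 9.44 and 7.73 at the earlier date but stood at 64.97 and 41.6 at the later date (interaction 2.35, adjusted p = 3.35e-09, limma). By presence of peaks, 14987 regions were gained and 4823 lost at the earlier date alone, and 26.2% and 27.4% of these were also gained or lost at the later date.

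**Figure D5:**
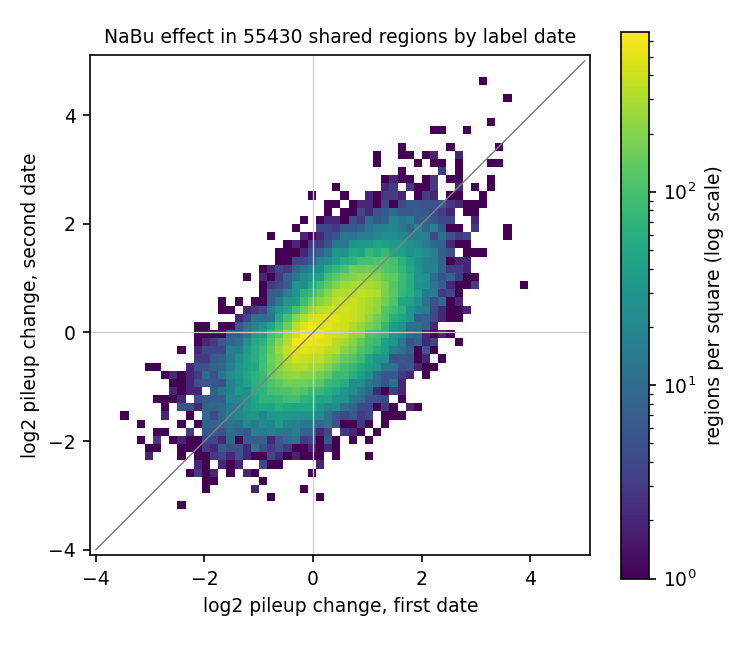
Log2 summit pileup change with NaBu at the earlier date (x axis) and at the later date (y axis) in the shared regions, with the number of regions per square on a log color scale and the line of equal change in grey. Regions spread widely to both sides of the line, and the median was 0.26 at the earlier and 0.05 at the later date.

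Changed regions were spread over the genome. The share of tested regions that rose ran from 5.23% on the X chromosome and 6.82% on chromosome 16 to 8.85% on chromosome 15 and 8.93% on chromosome 8. The share that fell ran from 5.36% on chromosome 5 to 6.75% on chromosome 10. The X chromosome was the 1 chromosome with fewer rises (138) than falls (175) among 2639 tested regions. Chromosome 19 held 2.83% to 2.87% of all peaks in the treated and 2.88% to 2.95% in the untreated libraries, which did not overlap (two-sided exact permutation p = 0.0286, the smallest possible). Adjusted over 20 chromosomes this is 0.571, and a single chromosome cannot go lower with 4 libraries against 4.

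Runs of adjacent regions that changed the same way were short. Of the regions that rose, 17.96% stood next to another rising region in the order of tested regions, with gaps of at most 50 kb, and of those that fell 18.6%. Each region has a neighbor on both sides and 8.02% and 5.97% of tested regions were called, so such shares are partly set by the number of calls and were not tested. Runs of 3 or more numbered 103 upward and 81 downward, and these counts moved between 21 and 302 and between 16 and 271 over 20 alternative settings of the fit. The longest was a cluster of 5 rising regions within 8.25 kb at chr4:130694876-130703126, of which 4 were gained regions with no untreated peak. Their median percentile was 66.2, 68.3, 60.1 and 55.4 in treated replicates 1 to 4 and 0 in the untreated libraries. A run of 4 shared regions at chr17:29848898-29896761 rose from medians of 80.0, 82.2, 76.2 and 78.7 in untreated to 91.2, 89.8, 87.7 and 86.3 in treated libraries. Downward runs had 4 regions at most. The widest was chr5:53460047-53480646, where medians were 88.0, 87.7, 85.4 and 85.5 untreated and 69.4, 74.4, 69.5 and 71.2 treated.

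Windows of 1 Mb differed in their share of changed regions. Over 1118 windows with at least 50 tested regions, the median share was 7.82% higher and 5.99% lower. The window with the highest share of rises was 43 to 44 Mb on chromosome 7, with 16 rises and 0 falls among 72 tested regions (22.2%). It was followed by 117 to 118 Mb on chromosome 8, with 24 rises and 6 falls among 112. For falls, the window at 63 to 64 Mb on chromosome 17 came first, with 10 falls and 2 rises among 53 tested regions (18.9%), and 89 to 90 Mb on chromosome 4 held 17 falls and 2 rises among 96. These windows are the extremes of many and were not tested.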

How the data were processed

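ATAC-seq peak lists of 8 CT26 libraries (4 with NaBu, 4 untreated) were used, and the 12 SW480 libraries were not analysed here. The authors called peaks on each library separately with an ENCODE pipeline, and the submitters' processing notes name Bowtie2 2.3.1 and MACS2 2.1.0. The deposited lists give, per summit, the fold enrichment (a ratio over local background), the −log10 p and −log10 q, the summit offset and a score, which was not used. The build was taken as mm10, named in those notes, because peaks reach base 195371663 of chromosome 1 and 159885934 of chromosome 3.

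Identical intervals were joined, and intervals overlapping by at least 1 bp were merged into regions. Each region took its highest −log10 p per library, ranked as a percentile over all regions. Tests used limma 3.58.1 (eBayes with a trend) on regions listed by 2 or more libraries, with date as a block, and exact permutation tests for values per library. Pileups were recovered from the fold and the p under the Poisson model of the caller (pseudocount 1) and divided by the 0.001 quantile of the local background. The total number of reads was not given in the lists, so depth is known only as background pileup. The scripts were tested on simulated data. The study itself tested read counts, which were not used here.

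Regions named in the text are the 12 largest gains and losses by rank with groups that do not overlap, the 8 largest pileup rises and falls (at most 2 per chromosome and direction in both sets), the 4 largest date interactions in each direction and the longest runs. The comparison, readouts and alternatives were chosen with earlier results of these data known.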

Additional observations from a re-analysis of the deposited data

Results flagged for a closer look

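In all, 3 library values stood far from the rest of their group by a gap test on 4 values, out of 70 groups examined, and chance gives about 1 in 20. The median peak of treated replicate 1 was 394 bp wide, with 227 bp next in its group. At chr2:34904635-34905564 untreated replicate 3 had a log2 pileup over background of 3.04, with 3.597 as the nearest value, and at chr6:72898745-72900766 treated replicate 3 had 4.23, with 3.80 as the nearest.

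The effect of NaBu differed between the label dates in 21150 regions by rank and in 8819 shared regions by pileup (limma interaction). The largest differences by rank, later date minus earlier date, were 148 percentile points at chr8:84629476-84629822, 147 at chr7:16183635-16183987, 147 at chr19:3729002-3729254 and 146 at chr7:99537519-99537679. In the other direction they were −168 at chr9:70533328-70533656, −165 at chr6:86527500-86527604, −163 at chr3:126827323-126827450 and −158 at chrX:106149475-106150101. What differed between the dates was not given in the sources used here.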

How the results depend on the processing

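The 16 regions named by pileup kept their direction and their call under each alternative in which they could be matched (highest adjusted p = 0.0023, limma). Of the 8 regions named for a date difference, 3 lost the call under 1 alternative each. The cause of the changes below was not tested. With −log10 q of at least 2 or the common p limit, the groups differed in peak intervals (25893 and 23291 more with NaBu), summits per peak (−0.397 and −0.415) and share of peaks over 1 kb (−5.69 and −6.05), each with an exact permutation p of 0.0286, and the share of peaks with 1 summit turned from −1.45 to 5.79 percentage points under the common limit. Covered megabases differed by 2.98 to 6.22 over the leave-one-out sets and by −0.64 in the top 50000 intervals (exact permutation p = 0.714), and passed without treated replicate 2 (exact permutation p = 0.0286). The Jaccard difference of 0.0844 had an exact permutation p of 0.0556 within dates, the smallest possible there.

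Gained and lost regions numbered 1380 and 1429 in the top 50000 intervals, and lost regions 830 under the common limit, 2052 in 200 bp windows and 1527 to 2023 with a library left out. Single dates gave 14987 and 17040 gained and 4823 and 6716 lost. Rank calls that fell numbered 5457 to 7261 with a library left out. Date differences numbered 4595 and 5368 in the top 50000 intervals, 6051 upward under the common limit, 2034 and 6785 on the pileup scale and 3709 to 13831 upward with a library left out. Rises within a date numbered 8520 and 8135 in the top 50000 intervals, and with a library left out the later date had 7516 to 18851 rises and 5824 to 12290 falls. Pileup gave 16889 rises over background, and 11122 rises and 16750 falls scaled by the median, and 6519 falls without the date block. The share of rises in the lowest decile was 20.1% scaled by the median. With a library left out it was 22.6% to 37.2%, over the shared regions whose coordinates stayed the same. Falls in the highest decile made up 55.2% scaled by the median and 20.4% without the date block. Where leaving out a library left 1 sample of a group at a date, that sample is assumed to vary like the others. Runs numbered 59 to 98 upward and 34 to 72 downward with a library left out.

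With the replicate number as a block, 6427 regions rose and 3913 fell by rank, with 21 and 20 runs. The deviations of same-numbered libraries from their group means correlated at 0.068 to 0.116. Different-numbered libraries of one date had 0.090 to 0.104, since these deviations still hold the date difference. These correlations therefore cannot show whether same-numbered libraries are pairs. With the date means also removed, same-numbered libraries correlated at −0.0093 at the earlier and −0.0082 at the later date. With 2 libraries per group and date, different-numbered ones have the same values with the sign reversed. The libraries were not treated as pairs. Percentiles taken over tested regions only, an alternative chosen after seeing the data, gave 14746 rises and 12230 falls. Alternatives that need gene positions or gene lists were not run, since a mouse annotation was not used here. The lists limit what can be said of weak regions, because a region below a library's own limit has no value.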
